A study of Mus musculus with 19 samples.

Results

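MMERGLN is a mouse endogenous retrovirus of the ERV1 class, the class that also holds the murine leukemia virus-like elements. It is described by 2 consensus sequences, MMERGLN-int for the internal region and MMERGLN_LTR for the long terminal repeat (LTR). These 2 entries, chosen by their exact names among the 259 retrotransposon subfamilies measured, were followed through 19 mRNA-seq libraries of spermatogonia. The cells were sorted by FACS for the surface protein EpCAM from testes at postnatal day 7. Directional poly(A) libraries were read as single-end reads of 50 bp. The *Dnmt3l* line gave 2 wild-type, 3 heterozygous and 3 homozygous KO libraries, and the *Pld6* line gave 3 wild-type, 3 heterozygous and 5 homozygous KO libraries. The libraries are labelled as biological replicates, each line had its own wild types, and both lines had been backcrossed to C57BL/6J.

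A full-length endogenous retrovirus carries an LTR at each end and the *gag*, *pol* and, where kept, *env* genes between them. Transcription starts in the upstream LTR, which is the promoter, and ends in the downstream LTR, where the poly(A) signal lies, while recombination between the LTRs leaves solo LTRs without an internal region. The GLN elements take their name from the glutamine tRNA that matches their primer binding site. In male germ cells before birth, DNMT3L, a partner of the *de novo* DNA methyltransferases, is needed to place DNA methylation on retrotransposons. PLD6, a mitochondrial protein also called MitoPLD or Zucchini, is needed to make the piRNAs that cut retrotransposon RNA and guide methylation to young copies.

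The authors reported RPM, mapped reads of a consensus sequence scaled to the mapped total of the library. Depth was not known, and the lengths of the consensus sequences were not analysed here, so RPM of the internal region and of the LTR are not levels per length. Their ratio is therefore compared only between libraries. The tables cover retrotransposons alone, so *Dnmt3l* and *Pld6* transcripts and markers of spermatogonia or of somatic testis cells were not analysed here. Fewer cells with MMERGLN RNA and less MMERGLN RNA per cell cannot be told apart in these bulk samples. The summed RPM of the 259 subfamilies was 2103 to 4413 in the 11 wild-type and heterozygous libraries and 7178 to 14603 in the 8 KO libraries. One library stood apart in its low values. *Pld6* heterozygous replicate 1 had 159 subfamilies at 0, against 60 to 90 in the other 18 libraries, and its most frequent RPM above 0 was 0.35, against 0.03 to 0.14.

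MMERGLN-int was low in every wild-type and heterozygous library and high in every KO library. In the *Pld6* line, wild-type replicates 1 to 3 had 4.08, 5.50 and 7.14 RPM and heterozygous replicates 5.17, 7.51 and 2.24 RPM. *Pld6* KO replicates 1 to 5 had 223.94, 297.36, 211.37, 140.59 and 232.86 RPM. The lowest KO library, replicate 4, was still far above the highest control library of its line. In the *Dnmt3l* line, wild-type replicates had 4.45 and 3.39 RPM and heterozygous replicates 6.46, 5.99 and 4.24 RPM. *Dnmt3l* KO replicates had 365.28, 217.19 and 450.76 RPM. KO and control libraries did not overlap in either line, whereas *Dnmt3l* KO replicate 2 lay within the range of the *Pld6* KO libraries.

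MMERGLN_LTR, the promoter-bearing part, showed the same division between control and KO libraries at lower RPM. *Pld6* wild-type replicates had 1.46, 1.79 and 1.63 RPM, heterozygous replicates 2.75, 1.63 and 1.53 RPM and KO replicates 16.49, 21.66, 18.10, 20.88 and 18.42 RPM. *Dnmt3l* wild-type replicates had 1.38 and 1.94 RPM, heterozygous replicates 1.68, 1.52 and 1.77 RPM and KO replicates 24.72, 17.08 and 31.46 RPM. All 8 KO libraries lay above all 11 controls. The highest control, 2.75 RPM, was the *Pld6* heterozygous library with many subfamilies at 0. *Pld6* KO replicate 4, lowest of its group for the internal region, was second highest for the LTR.

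**Figure D1:**
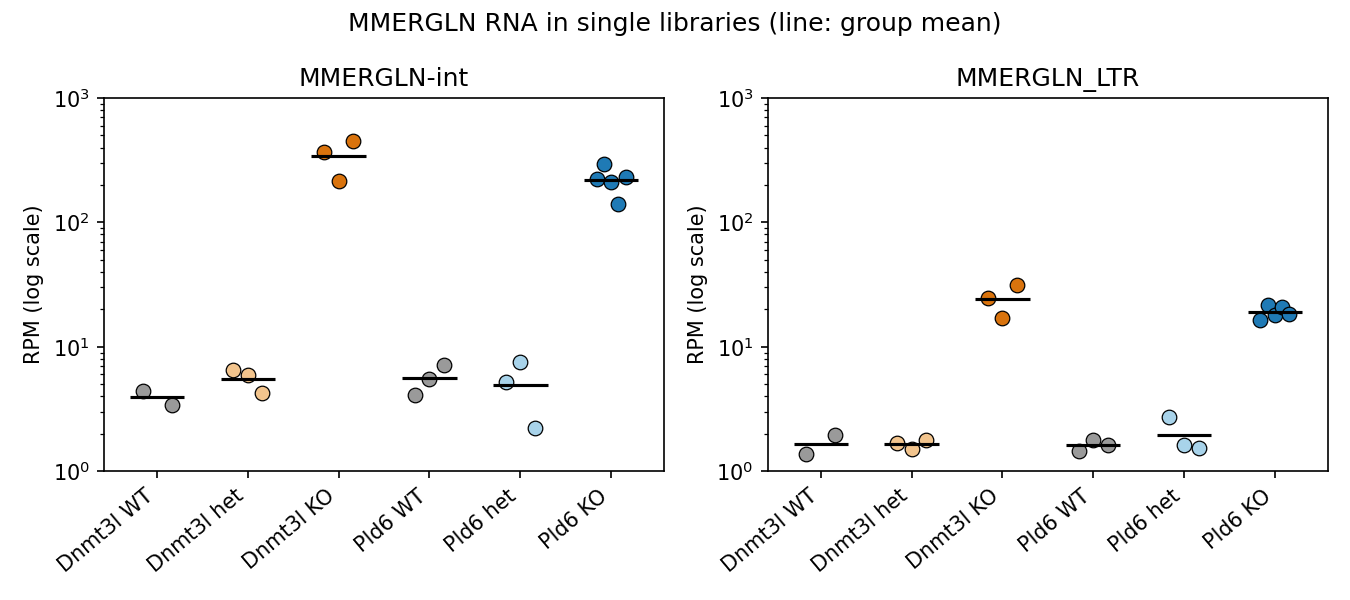
RPM (log scale) of MMERGLN-int and of MMERGLN_LTR in each of the 19 libraries, by genotype group, with a line at the group mean. The 8 KO libraries sit between 140.59 and 450.76 RPM for the internal region and between 16.49 and 31.46 RPM for the LTR, above all 11 control libraries in both panels.

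Ordered by mean RPM, MMERGLN-int was lowest in *Dnmt3l* wild type (3.92 ± 0.750, SD, n = 2), followed by *Pld6* heterozygous (4.97 ± 2.64, n = 3), *Dnmt3l* heterozygous (5.56 ± 1.17, n = 3), *Pld6* wild type (5.57 ± 1.53, n = 3), *Pld6* KO (221 ± 55.99, n = 5) and *Dnmt3l* KO (344 ± 118, n = 3). Only the step from *Pld6* wild type to *Pld6* KO separated neighbours whose single libraries did not overlap. MMERGLN_LTR gave another order among the controls, from *Pld6* wild type (1.63 ± 0.165) through *Dnmt3l* heterozygous (1.66 ± 0.127) and *Dnmt3l* wild type (1.66 ± 0.396) to *Pld6* heterozygous (1.97 ± 0.677), and again *Pld6* KO (19.1 ± 2.12) and *Dnmt3l* KO (24.4 ± 7.19) came last. Here too the neighbours overlapped except at the step from controls to KO.

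Loss of PLD6 was compared with wild type and with heterozygotes, which share the KO libraries. Mean RPM of MMERGLN-int was 39.7-fold higher in *Pld6* KO than in wild type, with single KO libraries at 25.2- to 53.4-fold the wild-type mean, and 44.5-fold higher than in heterozygotes. MMERGLN_LTR was 11.7-fold higher than in wild type (10.1- to 13.3-fold for single libraries) and 9.70-fold higher than in heterozygotes. In limma on log2(RPM + 1), a scale that understates the change of low values, both entries rose against wild type, MMERGLN-int by 5.07 (95% confidence interval 4.44 to 5.69, adjusted p = 6.9e-11) and MMERGLN_LTR by 2.93 (2.52 to 3.34, adjusted p = 3.2e-10). An exact permutation test over libraries gave p = 0.0357 for each entry against wild type, the smallest that 5 against 3 libraries allow. Of the 114 subfamilies tested, 30.7% rose in limma. Among them MMERGLN-int had the highest log2 difference and MMERGLN_LTR the 9th highest. L1Md_A_5end, an end of a young L1 subfamily, had 4.96, inside the confidence interval of MMERGLN-int. Against heterozygotes both entries rose as well in limma, by 5.29 (adjusted p = 2.8e-11) and 2.78 (adjusted p = 6.5e-10), where 45.6% of the subfamilies rose. There MMERGLN-int ranked 2nd and MMERGLN_LTR 11th by log2 difference.

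Loss of DNMT3L was compared in the same way. MMERGLN-int was 87.9-fold higher in *Dnmt3l* KO than in wild type by mean RPM (55.4- to 115-fold for single KO libraries) and 61.9-fold higher than in heterozygotes. MMERGLN_LTR was 14.7-fold higher than in either control group, with single KO libraries at 10.3- to 18.95-fold the wild-type mean. Both rose in limma against wild type, by 6.08 (5.30 to 6.85, adjusted p = 9.3e-11) for the internal region and 3.22 (2.71 to 3.74, adjusted p = 1.8e-09) for the LTR, among 38.6% of subfamilies that rose. MMERGLN-int had the 4th and MMERGLN_LTR the 11th highest log2 difference. The limma p-values rest on a spread shared over groups and subfamilies. An exact permutation test over libraries gave p = 0.2 for each entry against wild type, the smallest that 3 against 2 libraries allow. Against heterozygotes they rose by 5.67 (adjusted p = 3.4e-11) and 3.22 (adjusted p = 2.9e-10), where 46.5% of the subfamilies rose.

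KO libraries also differed from control libraries in the level at which most subfamilies lay. The median log2 difference over the 114 subfamilies was 0.26 in *Pld6* KO and 0.50 in *Dnmt3l* KO against wild type. After each library was divided by its median ratio over 33 well-measured subfamilies, those medians were -0.14 and -0.02, and the split of calls moved from 35 higher and 0 (0%) lower to 29 and 16 in *Pld6* KO, and from 44 and 2 (1.75% of those tested) to 27 and 9 in *Dnmt3l* KO. The factors divided out were 1.09 to 1.44 in the KO libraries and 0.657 to 0.950 in the controls, without overlap. Scaling of the libraries and a shared rise of retrotransposon RNA in KO therefore cannot be told apart. Both MMERGLN entries still rose after this rescaling, the internal region by 4.59 and 5.45 and the LTR by 2.52 and 2.66 in *Pld6* and *Dnmt3l* KO (limma, adjusted p of at most 1.4e-07).

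Heterozygous loss was not accompanied by a detectable change. The *Pld6* heterozygous minus wild-type log2 difference was -0.22 for MMERGLN-int (-0.91 to 0.47, limma adjusted p = 0.778) and 0.16 for MMERGLN_LTR (-0.30 to 0.61, adjusted p = 0.778). Without heterozygous replicate 1, the LTR difference was -0.02. In the *Dnmt3l* line the differences were 0.41 (-0.37 to 1.18, adjusted p = 0.950) and 0.01 (-0.51 to 0.52, adjusted p = 0.991). In both comparisons 0% of the 114 subfamilies passed limma in either direction, with 5 and 0 subfamilies at an unadjusted p under 0.05 in the *Pld6* and *Dnmt3l* lines. All 4 intervals include 0 and reach to both sides of it.

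Between the mutants, MMERGLN-int was 1.56-fold higher and MMERGLN_LTR 1.28-fold higher in *Dnmt3l* KO than in *Pld6* KO by mean RPM. The log2 differences were 0.61 (-0.01 to 1.23, limma adjusted p = 0.131) and 0.30 (-0.11 to 0.71, adjusted p = 0.214), and neither passed the threshold, where 24.6% of subfamilies were higher and 7.02% lower in *Dnmt3l* KO. The internal region passed it without *Dnmt3l* KO replicate 2 (0.91, adjusted p = 0.0416). When each KO was first set against its own wild type, the difference of the effects was 1.01 for the internal region (0.02 to 2.01, adjusted p = 0.174) and 0.29 for the LTR (adjusted p = 0.646), where 7.89% of subfamilies had a higher and 4.39% a lower effect in *Dnmt3l* KO. Wild types of the 2 lines differed by -0.40 and 0.01 (*Dnmt3l* minus *Pld6*, adjusted p = 0.991 for both), where 0.877% of subfamilies passed.

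**Figure D2:**
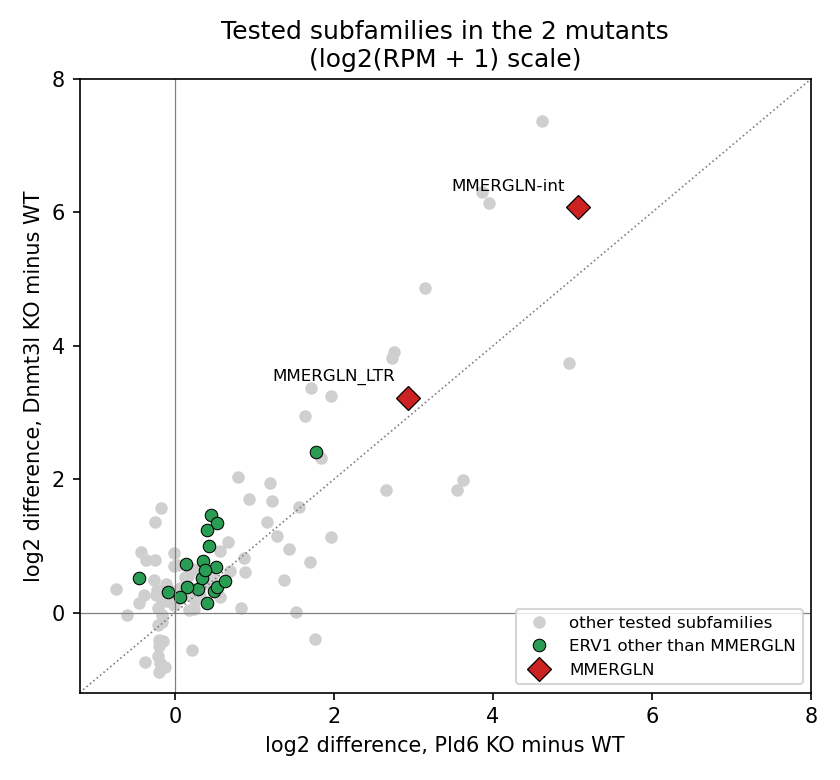
Log2 difference of KO minus wild type on the log2(RPM + 1) scale for each of the 114 tested subfamilies, with *Pld6* on the horizontal and *Dnmt3l* on the vertical axis, ERV1 subfamilies in green, MMERGLN as red diamonds and the dotted line marking equal differences. MMERGLN-int lies at 5.07 and 6.08 and MMERGLN_LTR at 2.93 and 3.22, apart from the other ERV1 subfamilies, of which RLTR1B-int is the nearest at 1.78 and 2.40.

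The internal region made up more of the MMERGLN RNA in KO libraries than in controls. The ratio of MMERGLN-int to MMERGLN_LTR was 2.79, 3.07 and 4.38 in *Pld6* wild-type replicates, 1.88, 4.61 and 1.46 in heterozygous replicates and 13.6, 13.7, 11.7, 6.73 and 12.6 in KO replicates 1 to 5. In the *Dnmt3l* line it was 3.22 and 1.75 in wild-type, 3.85, 3.94 and 2.40 in heterozygous and 14.8, 12.7 and 14.3 in KO replicates. Every KO ratio was above every control ratio, and *Pld6* KO replicate 4 lay between the 7 other KO libraries and the controls. The ratio does not depend on how a library is scaled. The ratio of RLTR1B-int to RLTR1B, a pair compared below, also separated all KO from all control libraries (log2 of at least 1.36 against at most 1.00).

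On the log2 scale the mean ratio was 3.50 ± 0.43 (SD, n = 5) in *Pld6* KO and 1.74 ± 0.34 (n = 3) in wild type, a 3.38-fold higher ratio. A two-sided exact permutation test over libraries gave p = 0.0357, the smallest that 5 against 3 libraries allow, and 0.143 after adjustment over 8 comparisons of the ratio. Against heterozygotes (1.22 ± 0.87, n = 3) the log2 difference was 2.28, with the same exact p. In the *Dnmt3l* line the mean log2 ratio was 3.80 ± 0.11 (n = 3) in KO, 1.25 ± 0.63 (n = 2) in wild type and 1.73 ± 0.40 (n = 3) in heterozygotes. The ratio was 5.86-fold higher than in wild type (exact permutation p = 0.2, adjusted 0.32) and 2.07 higher on the log2 scale than in heterozygotes (exact permutation p = 0.1, adjusted 0.267), in each case with the smallest p the design allows. These designs cannot pass 0.05 after adjustment. With the wild types and heterozygotes of a line as 1 control group, the log2 difference was 2.02 in the *Pld6* line (exact permutation p = 0.00433, adjusted over the 2 lines 0.00866, 5 against 6 libraries) and 2.26 in the *Dnmt3l* line (exact permutation p = 0.0357, adjusted 0.0357, 3 against 5 libraries).

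The ratios of the mutants overlapped, as did those of the control groups. *Dnmt3l* KO was 0.30 above *Pld6* KO on the log2 scale (exact permutation p = 0.143, adjusted 0.286), and 0.11 above it without *Pld6* KO replicate 4. Heterozygous minus wild-type log2 differences were -0.52 in the *Pld6* line (exact permutation p = 0.5, adjusted 0.571) and 0.48 in the *Dnmt3l* line (exact permutation p = 0.4, adjusted 0.533). Single libraries moved both values, the first to -1.01 without heterozygous replicate 2, -0.33 without wild-type replicate 3 and -0.19 without heterozygous replicate 3, and the second to 0.92 and 0.04 without wild-type replicate 1 and 2. Subtracting the mean wild-type RPM, the RNA gained in *Pld6* KO amounted to 216 RPM of internal region and 17.5 RPM of LTR, 12.3 to 1, and that gained in *Dnmt3l* KO to 340 and 22.8 RPM, 15.0 to 1.

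**Figure D3:**
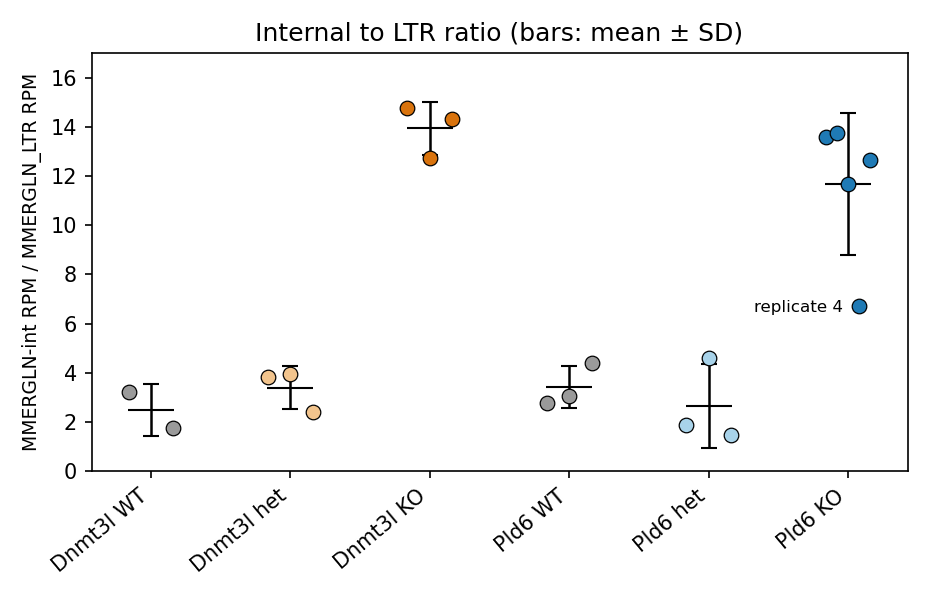
Ratio of MMERGLN-int RPM to MMERGLN_LTR RPM in each library by genotype group, with bars for the mean ± SD. The 11 control libraries lie between 1.46 and 4.61 and the 8 KO libraries between 6.73 and 14.8, with *Pld6* KO replicate 4 the lowest of the KO libraries.

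The ratios of 4 other element pairs were set beside MMERGLN to see whether they moved alike. IAPEz-int with IAPLTR1_Mm and MMERVK10C with RLTR10C belong to ERVK, another class of endogenous retroviruses, and RLTR4_MM-int with RLTR4_Mm and RLTR1B-int with RLTR1B belong to ERV1. In *Pld6* KO minus wild type, the log2 ratio differed by -0.51 for the IAPEz pair, 0.34 for the MMERVK10C pair and -0.003 for the RLTR4 pair, against 1.76 for MMERGLN. The excess of MMERGLN was 2.26, 1.41 and 1.76 over these pairs, each with an exact permutation p of 0.0357, the smallest possible, and 0.0952 after adjustment over 8 tests. The ratios of the IAPEz and RLTR1B pairs also did not overlap between KO and wild type (exact permutation p = 0.0357 for each). Those of the MMERVK10C and RLTR4 pairs overlapped. The RLTR1B pair had a difference of 1.34, and the excess of MMERGLN over it, 0.41, overlapped between KO and wild-type libraries (exact permutation p = 0.393). That excess was 0.18 without wild-type replicate 1 and 0.20 without KO replicate 2, while with 1 RPM added to every part it was 0.88, without overlap (exact permutation p = 0.0357, adjusted 0.0714).

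In *Dnmt3l* KO minus wild type, the log2 ratio of MMERGLN differed by 2.55. The IAPEz pair differed by -0.17, the MMERVK10C pair by 0.91, the RLTR4 pair by 0.40 and the RLTR1B pair by 1.00. The excess of MMERGLN was 2.72, 1.64, 2.15 and 1.55 over them, and for each pair this excess did not overlap between KO and wild-type libraries (exact permutation p = 0.2, the smallest for 3 against 2 libraries). The own ratios of the MMERVK10C, RLTR4 and RLTR1B pairs did not overlap either, with the same exact p, while that of the IAPEz pair did. None of the 8 tests of an excess passed 0.05 after adjustment, and with these numbers of libraries none could. With 1 RPM added, the difference of the IAPEz pair was -0.08 in *Pld6* KO and turned to 0.17 in *Dnmt3l* KO, and that of the RLTR4 pair in *Pld6* KO was 0.04, against 2.13 and 2.85 for MMERGLN in *Pld6* and *Dnmt3l* KO.

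**Figure D4:**
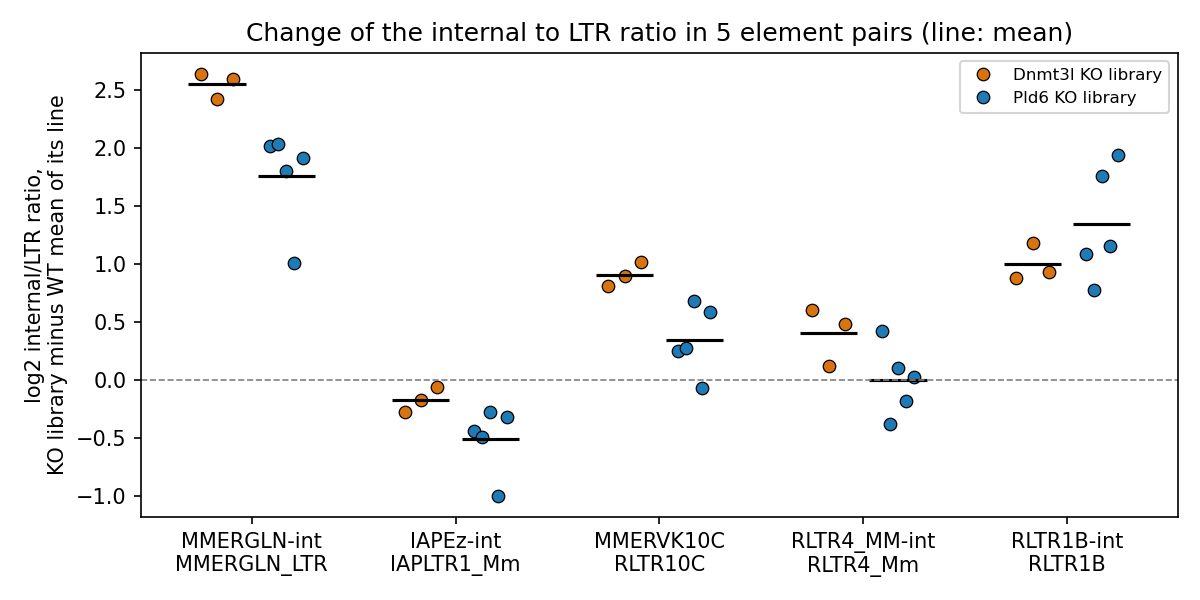
Log2 internal to LTR ratio of each KO library minus the wild-type mean of its line, for MMERGLN and 4 other element pairs, with *Dnmt3l* KO libraries in orange, *Pld6* KO libraries in blue and a line at the mean. MMERGLN has means of 2.55 and 1.76, the RLTR1B pair 1.00 and 1.34, and the IAPEz pair -0.17 and -0.51 (0.17 and -0.08 with 1 RPM added).

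*Pld6* KO replicate 4, in which the MMERGLN ratio was lowest of its group, was looked at in other ratios as well. These were examined after its MMERGLN value was seen. Its ratio of L1Md_A_5end, the promoter end of the young L1 subfamily L1Md_A, to L1Md_A_3end was 0.474, against 0.979 to 1.36 in the other *Pld6* KO libraries. Its log2 ratio was also the lowest of the group for the IAPEz pair (3.86) and for the MMERVK10C pair (4.13), but not for the RLTR4 pair (2.40) or the RLTR1B pair (1.74). For both ERVK pairs its gap to the next library, 0.697 and 0.425 of the group's range, was under Dixon's critical value of 0.71. The part of any library property in its low MMERGLN ratio was not tested. Without it, MMERGLN-int rose by 5.22 in *Pld6* KO against wild type (limma adjusted p = 7.6e-11), and the log2 ratio difference was 1.94 (exact permutation p = 0.0571, the smallest for 4 against 3 libraries).

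Within the ERV1 class, MMERGLN held a larger share of the RPM in every KO library than in every control library. The 2 entries made up 2.30% to 5.44% of the RPM of the 48 ERV1 subfamilies in the 11 control libraries and 44.9% to 62.9% in the 8 KO libraries. Means were 50.5% ± 5.48 (SD, n = 5) in *Pld6* KO and 53.5% ± 8.90 (n = 3) in *Dnmt3l* KO. Of the ERV1 RPM gained over wild type, MMERGLN took 233 of 297 RPM in *Pld6* KO (78.4%) and 363 of 521 RPM in *Dnmt3l* KO (69.7%). Of the RPM of all subfamilies it was a small part, 0.298% ± 0.095 in *Pld6* wild type and 3.10% ± 0.663 in KO, and 0.150% ± 0.011 in *Dnmt3l* wild type and 2.74% ± 0.792 in KO.

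The other 46 ERV1 subfamilies, of which 19 passed the filter on low RPM, gave 2 that rose and 17 that did not pass in *Pld6* KO against wild type (10.5%, against 30.7% of all tested), with a median log2 difference of 0.40 against 0.26 over all 114 tested. RLTR1B-int, the internal region of another ERV1 element, rose from 3.24 ± 0.197 RPM (SD, n = 3) to 13.8 ± 3.02 RPM (n = 5), by 1.78 on the log2 scale (limma adjusted p = 2.9e-07). Its LTR RLTR1B rose by 0.53 (limma adjusted p = 0.0284), but only by 0.15, short of the threshold, after rescaling by median ratios. In *Dnmt3l* KO, 8 of the 19 rose (42.1%, against 38.6% of all tested) and 0 fell, with a median of 0.52 against 0.50 over all tested. RLTR1B-int rose from 3.98 ± 0.622 RPM (n = 2) to 25.3 ± 1.77 RPM (n = 3), by 2.40 (limma adjusted p = 8.7e-08).

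The other 7 that rose in *Dnmt3l* KO were MuRRS4-int (1.46), RLTR1B (1.34), RLTR4_MM-int (1.24), MMVL30-int (1.00), MuLV-int (0.72), LTRIS2 (0.68) and RLTR6_Mm (0.63, limma log2 differences). MMVL30-int is the internal region of the VL30 elements, and MuLV-int that of murine leukemia virus-like proviruses. After rescaling, 3 of the 19 rose (MuRRS4-int, RLTR1B and RLTR1B-int, all among these 8), where 23.7% of all tested rose. In *Pld6* KO on that scale RLTR1B-int rose by 1.33 and LTRIS_Mus, named after its value was seen, fell by 0.52. Of all tested, 25.4% rose and 14% fell there. Without rescaling LTRIS_Mus differed by -0.09 (limma adjusted p = 0.709). MuRRS4-int was at most 0.69 RPM in every control and passed the filter on low RPM only through KO libraries, so its rise is not independent of that filter.

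The subfamilies whose pattern over the 19 libraries was most like that of MMERGLN were found by the mean absolute difference of log2(RPM + 1), each library taken relative to the wild-type mean of its line. This is a description of likeness, and libraries that share a group contribute together. For MMERGLN-int they were IAPEz-int (0.550), IAPLTR1_Mm (0.566), IAPA_MM (0.584), L1Md_A_5end (0.669) and IAPLTR2b (1.01), where the median over all tested subfamilies was 2.39. IAP elements are ERVK retroviruses and L1Md_A is a LINE, so no ERV1 subfamily was among the 5. The log2 differences of MMERGLN-int, 5.07 in *Pld6* KO and 6.08 in *Dnmt3l* KO, stood beside 3.87 and 6.31 for IAPEz-int and 4.96 and 3.75 for L1Md_A_5end. The difference between the 2 effects passed limma for IAPEz-int but not for MMERGLN-int or L1Md_A_5end (adjusted p = 0.174 for each of the last).

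For MMERGLN_LTR the nearest were IAPLTR2_Mm (0.402), IAPLTR2a (0.424), IAPLTR3-int (0.470), L1Md_A_3end (0.471) and IAPLTR1a_Mm (0.490), with a median of 1.31 over all tested. The nearest ERV1 subfamily, RLTR1B-int, was 8th (0.566). IAPLTR3-int was low even in *Pld6* KO, at 1.82 to 6.15 RPM. Here the log2 differences of MMERGLN_LTR, 2.93 and 3.22 in *Pld6* and *Dnmt3l* KO, stood beside 2.75 and 3.90 for IAPLTR2_Mm and 3.54 and 1.84 for L1Md_A_3end.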

How the data were processed

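The authors sorted EpCAM-positive spermatogonia, sequenced poly(A) libraries on a HiSeq2500 and aligned the reads with hisat2 to consensus sequences of retrotransposons. The submitters' processing notes name Trim Galore and the mm10 build. Mapping settings, the treatment of reads that match several sequences and the reads counted in the mapped total are not given in the sources used here, so reads from similar elements may be assigned to either. The authors deposited RPM for 259 subfamilies in each of 19 libraries. Low RPM values did not all fall on 1 step, whole reads were not recovered, depth is unknown and no count model was used.

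Groups followed the sample labels. The study's methods give 3 wild-type and 2 heterozygous *Dnmt3l* mice, and the labels 2 and 3. The model was fitted to log2(RPM + 1), computed from the deposited values, by limma 3.58.1 (R 4.3.3, eBayes with a mean-variance trend, 6 groups, no covariates) over the 114 subfamilies with at least 1 RPM in at least 2 libraries. Both MMERGLN entries passed this filter. P-values were two-sided and Benjamini-Hochberg adjusted within each comparison, with 0.05 as the threshold. Ratios were tested by exact permutation over libraries, as were the MMERGLN entries in each KO against wild type. The model was tested on simulated data. Named subfamilies were the MMERGLN entries, the 5 most like each, 4 other element pairs, and ERV1 subfamilies past the threshold in a KO against wild type. L1Md_A ratios were added after values were seen. The members and lists were chosen with earlier results of these data known. Alternatives covered pseudocount, filter, scaling, limma settings, libraries in the fit, controls, the replicate block and each library left out. No MMERGLN sequence was analysed here.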

Additional observations from a re-analysis of the deposited data

Results flagged for a closer look

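The log2 internal to LTR ratio of MMERGLN in *Pld6* KO replicate 4 (2.75) stood apart from the other 4 KO libraries (3.55 to 3.78), its gap to the nearest being 0.7729 of the whole range, above Dixon's critical value of 0.71. On the linear scale the gap was 0.707 of the range, just under that value. IAPEz-int in *Pld6* KO replicate 5 (448 RPM, against 1272 to 1523 RPM in the other 4) had a gap of 0.7665. These were 2 of 30 groups of values tested, and chance alone marks about 1 in 20. All 30 came from *Pld6* KO libraries and include parts of the same element, so they are not independent. Replicate 5 was also lowest for IAPLTR1_Mm, IAPA_MM, IAPLTR2b and IAPLTR3-int, with gaps of 0.645, 0.549, 0.563 and 0.430, under the critical value. For IAPLTR1a_Mm, IAPLTR2_Mm and IAPLTR2a the larger gap was at the highest library, replicate 4.

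The effects of the mutations, *Dnmt3l* KO minus wild type less *Pld6* KO minus wild type on the log2 scale, differed in limma for 9 of the named subfamilies. Over all 114 tested, 7.89% had a higher and 4.39% a lower effect in *Dnmt3l* KO. The named subfamilies were partly chosen by calls and likeness in these same data, so their share is not independent of that choice. The difference was 2.754 for IAPA_MM, 2.438 for IAPEz-int, 2.19 for IAPLTR1_Mm, 1.727 for IAPLTR2b, 1.659 for IAPLTR1a_Mm, 1.311 for MMERVK10C, 1.011 for MuRRS4-int, 0.7485 for RLTR10C and -1.707 for L1Md_A_3end. MMERGLN-int (1.01, adjusted p = 0.174) and MMERGLN_LTR (0.29, adjusted p = 0.646) were not among them. MuRRS4-int reached 1 RPM only in KO libraries, through which it passed the filter on low RPM.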

How the results depend on the processing

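Over 43 results and 608 alternatives, 576 kept direction and side of the threshold, or stayed within 1.5 times for a count. The rises of both MMERGLN entries in each KO against wild type passed limma under every alternative run. Over all settings other than a left-out library, the rise of MMERGLN-int was 4.59 to 5.28 in *Pld6* KO and 5.45 to 6.37 in *Dnmt3l* KO, and that of MMERGLN_LTR 2.52 to 3.47 and 2.66 to 3.77. With each library left out in turn, these rises were 4.89 to 5.23, 5.85 to 6.38, 2.89 to 2.98 and 3.03 to 3.45. The lowest values came with rescaling.

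Pooled controls took the ratio difference past the threshold, at 2.02 in *Pld6* and 2.26 in *Dnmt3l* KO. MMERGLN-int in *Dnmt3l* KO minus *Pld6* KO ranged from 0.387 to 0.912 with a library left out, and passed without *Dnmt3l* KO replicate 2. For MMERGLN_LTR (0.30) it was 0.120 after rescaling and 0.107 to 0.529 with a library left out, the ends being without *Dnmt3l* KO replicates 3 and 2. The difference of effects of the LTR (0.29) was 0.134 after rescaling and 0.095 to 0.517 with a library left out. Small differences among controls changed sign. MMERGLN_LTR in *Dnmt3l* minus *Pld6* wild type was -0.014 after rescaling and -0.140 to 0.164 with a library left out. In *Dnmt3l* heterozygous minus wild type it was -0.016 with the replicate block and -0.147 to 0.158 with a library left out. In *Pld6* heterozygous minus wild type, leaving out a library gave -0.024 to 0.260 for the LTR and -0.529 to 0.167 for the internal region.

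Counts of subfamilies called moved more. For the difference between the mutants, 14 were called, 9 with a pseudocount of 0.5, 22 with pooled controls or without *Pld6* heterozygous replicate 1, and 7 to 22 with a library left out. Between the wild types 1 was called, 0 with no filter, rescaling, no trend or only those groups fitted, and 0 to 2 with a library left out. In *Dnmt3l* KO minus heterozygous 59 were called, 35 after rescaling, and in *Dnmt3l* heterozygous minus wild type 0, and 1 with only those groups fitted. The causes were not tested.

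Replicate numbers are shared between genotypes, and the labels do not say whether same-numbered samples are paired. Deviations of same-numbered *Pld6* KO and wild-type libraries correlated at 0.113, -0.302 and 0.024 over subfamilies. The correlations were 0.143, -0.077 and -0.053 for *Pld6* KO and heterozygous libraries and 0.275, 0.463 and -0.259 for *Pld6* heterozygous and wild-type libraries. In the *Dnmt3l* line every such correlation was above 0, at 0.553, 0.122 and 0.043 for KO and heterozygous, 0.093 and 0.134 for KO and wild-type and 0.190 and 0.312 for heterozygous and wild-type libraries. No set of 3 pairs was over 0.1 throughout, and not every library correlated best with its own number. These correlations do not settle whether the samples are paired. With the replicate block MMERGLN-int rose by 5.23 and 6.13 and MMERGLN_LTR by 2.90 and 3.20 in *Pld6* and *Dnmt3l* KO, and the block changed no call of either entry. With depth unknown, no counting error can be given for the LTR values of 1.38 to 2.75 RPM in controls.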
